A study of Mus musculus with 10 samples.

Results

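The genes described here encode enzymes that cut the extracellular matrix, together with their inhibitors: the matrix metalloproteinases (Mmp genes), the ADAMTS enzymes, the ADAMTS-like proteins and the tissue inhibitors of metalloproteinases (Timp genes). They were taken by name, as every gene probe on the array called Mmp, Adamts or Adamtsl followed by a number, or Timp1 to Timp4. That gave 47 genes, namely 21 metalloproteinases, 17 ADAMTS, 5 ADAMTS-like genes and 4 TIMPs, measured by 80 of the 41174 different gene probes. The array files hold 27962 different names in all.

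RNA came from whole femurs of male ICR mice aged 6 months. In the control group 5 mice moved freely, and in the unloaded group 5 mice were hung by the tail, head down, so that the hindlimbs bore no weight, for 24 h before the bones were taken. Both groups were housed singly, and each animal had its own Agilent one-colour array. The comparison asks which transcripts differ in bone after 24 h without load, and every difference below is unloaded minus control on the log2 scale.

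Metalloproteinases are made as inactive precursors. Other proteases, or membrane-bound members of the same family, cut off a propeptide to activate them, and TIMPs block the active enzymes. In bone, collagenases and gelatinases degrade collagen during growth, fracture repair and remodelling, with osteoclasts a main source of Mmp9 and osteoblasts and hypertrophic chondrocytes main sources of Mmp13. ADAMTS enzymes cut proteoglycans such as aggrecan and versican or process procollagen, whereas ADAMTS-like proteins lack the protease domain.

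Of the 47 genes, 46 were tested and 44 were well above background on all 10 arrays. The exception to testing was Mmp20, the enamel protease, which was well above background on 1 of 5 control and 3 of 5 unloaded arrays, at group means of -4.59 and -4.04. Of the 80 probes 78 were tested. Values are log2 signals relative to the array's 75th percentile, which is 0 on this scale. Because probes differ in brightness, levels are compared only between animals for the same probe.

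All 10 osteoblast markers, all 7 osteocyte markers and all 12 osteoclast markers on the lists used were well above background on all arrays. So were the 12 muscle, 12 neutrophil, 12 cartilage, 9 macrophage, 9 endothelial, 7 adipocyte and 7 fibroblast and tendon markers, in every sample of both groups. In such bulk samples, fewer cells of a type and less RNA per cell cannot be told apart. The 75th percentile of the processed signal lay between 637 and 903 intensity units, and between 89.8% and 95.5% of spots were well above background. Slide 1 held controls 1 to 4, slide 2 held control 5 and unloaded animals 1 to 3, and slide 3 held unloaded animals 4 and 5. Only slide 2 therefore gives a comparison within a slide, with 1 control array. The array of unloaded animal 5 stood apart, with a mean correlation of 0.972 with the other arrays against 0.984 to 0.987 for each of the rest.

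The metalloproteinases include a run of neighbours on mouse chromosome 9. In RefSeq's list for assembly GRCm38.p6 the order of genes there is Mmp13, Mmp12, Mmp1b, Mmp3, Mmp1a, Mmp10, Mmp8, Mmp27, Mmp20 and Mmp7, of which the array holds all but Mmp1b and Mmp27 under those names. The 100 bases before the start site of each of these 8 genes are printed because 7 of the 8 hold a short motif and Mmp8 does not. Capitals mark TGANTCA, with any base at N, a loose form of the motif bound by AP-1, a dimer of Fos and Jun family proteins. The middle base is A in Mmp20 and C or G in the others. The motif reads the same on both strands apart from its middle base. Sequences are RefSeq's for GRCm38.p6, 5′ to 3′ along the gene's strand.
Mmp13, chr9:7272414-7272513, + strand: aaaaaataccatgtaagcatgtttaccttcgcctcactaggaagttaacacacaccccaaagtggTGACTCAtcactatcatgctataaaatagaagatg
Mmp12, second listed start, chr9:7347274-7347373, + strand: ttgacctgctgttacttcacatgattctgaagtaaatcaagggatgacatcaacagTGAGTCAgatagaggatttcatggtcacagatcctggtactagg
Mmp3, chr9:7445722-7445821, + strand: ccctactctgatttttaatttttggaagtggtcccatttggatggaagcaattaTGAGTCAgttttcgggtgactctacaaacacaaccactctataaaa
Mmp1a, chr9:7464041-7464140, + strand: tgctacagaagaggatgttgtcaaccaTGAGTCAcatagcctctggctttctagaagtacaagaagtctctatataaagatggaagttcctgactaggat
Mmp10, chr9:7502242-7502341, + strand: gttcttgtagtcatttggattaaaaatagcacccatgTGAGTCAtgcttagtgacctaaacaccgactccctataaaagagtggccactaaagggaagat
Mmp20, chr9:7628131-7628230, + strand: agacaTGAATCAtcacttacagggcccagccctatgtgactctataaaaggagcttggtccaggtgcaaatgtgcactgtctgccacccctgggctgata
Mmp7, first listed start, chr9:7691990-7692089, + strand: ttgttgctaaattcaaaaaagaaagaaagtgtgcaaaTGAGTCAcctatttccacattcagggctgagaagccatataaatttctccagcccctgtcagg
Mmp8, chr9:7558329-7558428, + strand: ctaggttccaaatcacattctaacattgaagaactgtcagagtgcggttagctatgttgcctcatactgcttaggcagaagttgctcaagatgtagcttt

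With -1 as the last base before the start, the AP-1 letters began at -35 in Mmp13, -44 in Mmp12, -46 in Mmp3, -73 in Mmp1a, -63 in Mmp10, -95 in Mmp20 and -63 in Mmp7. Mmp8, the neutrophil collagenase, did not hold them in the 250 bases before its start, and neither did the other listed starts of Mmp12 and Mmp7. RefSeq promoter windows were found for 32 of the 47 genes, 35 windows in all, and 7 of these windows (20.0%) held the motif within 250 bases before the start. Among all 32851 windows of the same length in the table, 2217 (6.75%) held it. All 7 genes with the motif lay in the chromosome 9 run, and 0 of the 24 other genes with a window held it. The RUNX motif ACCACA, or TGTGGT on the other strand, was found in 4 of the 35 windows (11.4%) against 14% of all windows. One of those was Mmp13, with the match at -118. A match says only that these letters are present, and the array data do not show whether a factor was bound.

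None of the 46 genes passed the test after 24 h of unloading. With limma and Benjamini-Hochberg adjustment over all 38629 tested probes, 0 of the 46 were called at an adjusted p below 0.05, and the smallest adjusted p among them was 0.240. Across the whole array 1 probe was called, 0.00259% of those tested. At an unadjusted p below 0.05 there were 4 of 46 genes (8.70%), with positive differences for Mmp7, Mmp28 and Adamts20 and a negative one for Adamts5, where 16.1% of all probes reached that level (10.2% higher and 5.92% lower). The groups of 5 did not overlap for 1 gene (2.17%), Adamts18, against 3.16% of all probes (1.51% higher and 1.65% lower). In this fit both shares were below those of the array as a whole, and the second rests on 1 gene. The first relation depended on the arrays used and on the model. It was reversed with slide as a fixed block, where the share was larger among the 46 genes than over all probes. The differences of that fit rest on slide 2, which has 1 control. Without control 3, 5 of 46 genes and 4064 of 38629 probes had an unadjusted p below 0.05, which are nearly equal shares.

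Differences were positive for 34 of the 46 genes (73.9%), where 62.6% of all tested probes were positive. The median difference was 0.097 over the 46 genes and 0.066 over all probes. The count of positive signs depended on scaling. With arrays centred on their medians 26 of 46 genes were positive against 45.0% of probes, and with quantile normalization 29 of 46 against 52.3%. By class the medians were 0.084 for the metalloproteinases, 0.13 for ADAMTS, 0.15 for the ADAMTS-like genes and 0.015 for the TIMPs. Under median scaling the metalloproteinase median was -0.00549 and the TIMP median -0.075, whereas those of ADAMTS and ADAMTS-like genes stayed positive at 0.041 and 0.063. The 95% intervals had half-widths of 0.178 to 0.556, with a median of 0.271.

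**Figure D1:**
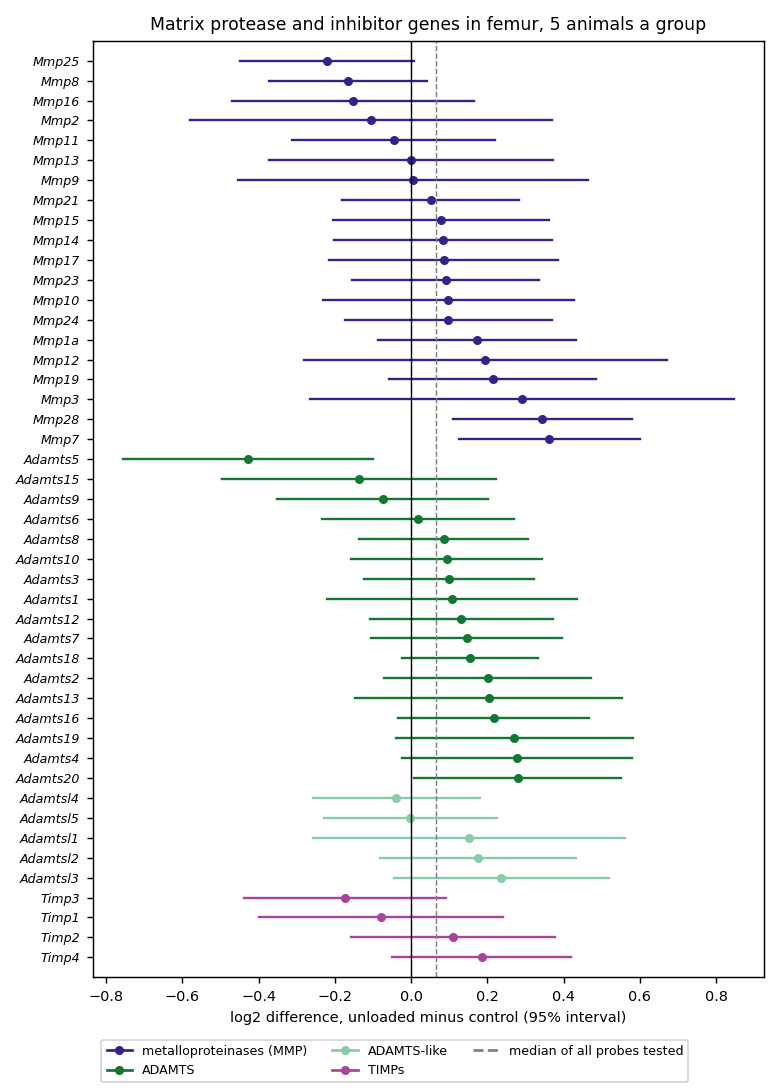
Log2 difference, unloaded minus control, for the 46 tested genes by class, as points with 95% intervals from limma (5 animals a group); the dashed line is the median of all tested probes, 0.066. The intervals of 4 genes, Mmp7, Mmp28, Adamts20 and Adamts5, exclude 0 before any adjustment, and none had an adjusted p below 0.240.

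The gelatinases degrade denatured collagen and basement membrane. Mmp2 read 2.14, 2.48, 2.55, 1.99 and 1.72 in controls 1 to 5 and 2.23, 2.78, 1.83, 2.08 and 1.43 in unloaded animals 1 to 5. The unloaded animals held both the highest and the lowest of the 10 values, and the groups overlapped fully. The difference was -0.10 (95% interval -0.58 to 0.37, adjusted p = 0.811 by limma), whereas on slide 2 alone it was 0.55. Mmp9 read 4.07, 4.33, 4.02, 4.07 and 3.84 in controls and 4.08, 4.75, 3.97, 4.33 and 3.24 in unloaded animals. Its means were 4.07 ± 0.17 and 4.07 ± 0.55 (SD, n = 5 each), with a difference of 0.0059 (-0.45 to 0.46), so the means were alike and the unloaded values lay wider apart. The second Mmp9 probe gave 0.0095, with SDs nearer to each other, 0.27 in controls and 0.45 in unloaded animals. The difference in spread was not tested. On slide 2 alone the first probe gave 0.42.

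The collagenases cut intact fibrillar collagen. Mmp13, the main collagenase of mouse bone, read 5.15, 5.05, 5.02, 4.78 and 4.51 in controls and 4.98, 5.46, 4.74, 4.88 and 4.45 in unloaded animals. Both means were 4.90, with SDs of 0.26 and 0.37, and the 95% interval of the difference ran from -0.37 to 0.37. On slide 2 the difference was 0.55. Mmp8, the collagenase stored by neutrophils, read 3.2, 3.31, 3.33, 3.15 and 3.29 in controls and 3.06, 2.95, 3.05, 3.35 and 3.03 in unloaded animals. Of the unloaded values 4 lay below every control, and animal 4 lay above every control. The difference was -0.17 (-0.37 to 0.04, adjusted p = 0.379 by limma), and -0.27 on slide 2. Mmp1a, a mouse counterpart of human interstitial collagenase, differed by 0.17 with an adjusted p of 0.451 by limma.

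Mmp14 sits in the cell membrane and activates the Mmp2 precursor with Timp2 as a bridge. Its controls read 5.17, 5.22, 4.90, 5.11 and 4.82 and its unloaded animals 5.13, 5.54, 5.09, 5.06 and 4.81. The difference was 0.084 (-0.20 to 0.37), and a second, dimmer probe gave 0.082. On slide 2 the Mmp14 difference was 0.43. Of the other membrane-anchored enzymes, Mmp15, Mmp17 and Mmp24 lay between 0.078 and 0.097, Mmp16 at -0.15 and Mmp25, found on neutrophils, at -0.22 (-0.45 to 0.01, adjusted p = 0.319 by limma). The Mmp25 difference was -0.32 on slide 2.

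Across Mmp2, Mmp9, Mmp13 and Mmp14 the same pair of unloaded animals marked the ends. Unloaded animal 2 gave the highest and unloaded animal 5 the lowest of the 10 values for each of the 4 genes. Without unloaded animal 5 the differences were 0.054 for Mmp2, 0.21 for Mmp9, 0.11 for Mmp13 and 0.16 for Mmp14. Without unloaded animal 2 they were -0.28, -0.16, -0.14 and -0.019 in the same order, and none was called either way. Control 5, the only control on slide 2, was the lowest control for all 4, so the slide 2 differences of 0.42 to 0.55 rest on that array.

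**Figure D2:**
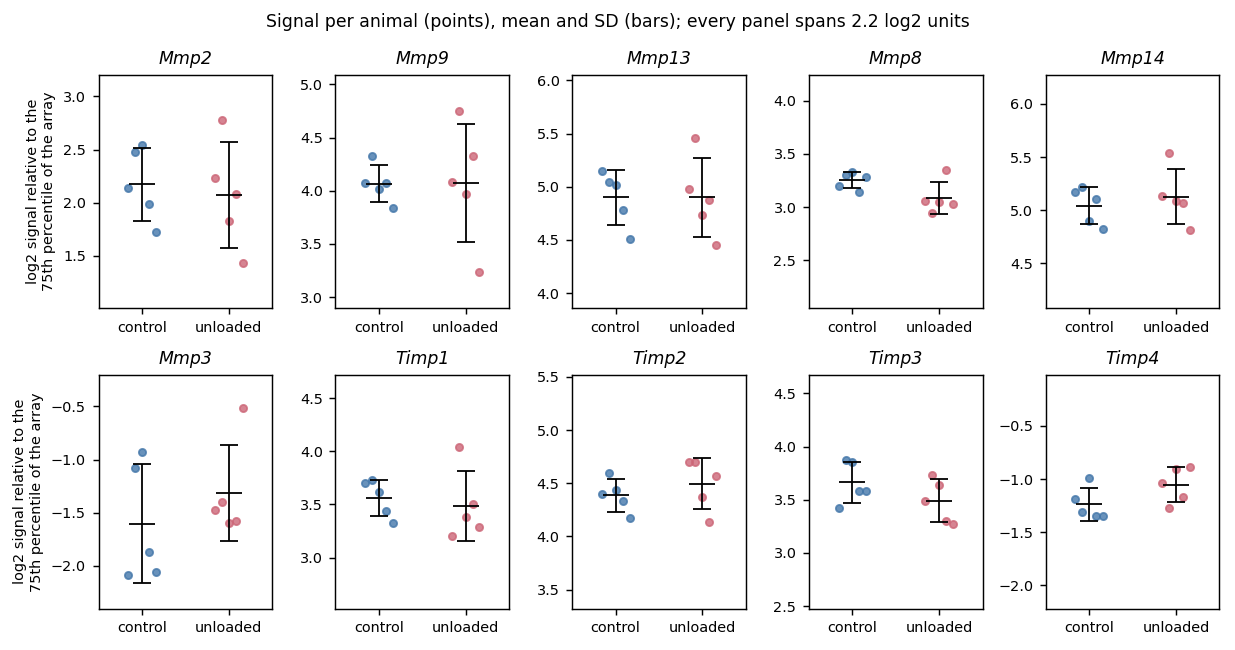
Log2 signal relative to the array's 75th percentile for 6 metalloproteinases and the 4 TIMPs, 1 point per animal, with bars for the mean and SD of 5 animals a group; every panel spans the same log2 range. The groups overlap in all panels, Mmp9 spreads more in unloaded animals (SD 0.55) than in controls (SD 0.17), and Mmp3 has 1 high unloaded animal at -0.52.

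Stromelysins cut proteoglycans and fibronectin and activate other metalloproteinases. Mmp3 read -2.09, -1.08, -0.93, -1.87 and -2.06 in controls and -1.48, -1.40, -1.60, -1.58 and -0.52 in unloaded animals. Controls 2 and 3 and unloaded animal 5 stood high, and the groups overlapped. The difference was 0.29 with the widest interval of all 46 genes (-0.27 to 0.85, adjusted p = 0.547 by limma). Without unloaded animal 5 it was 0.091, and without controls 2 and 3 together 0.69, neither of them called. The other stromelysins, Mmp10 and Mmp11, differed by 0.097 and -0.046.

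Mmp7 (matrilysin), a small secreted protease that lacks the hemopexin domain, had the smallest p of the 46 genes. It read -2.77, -2.95, -2.58, -2.82 and -2.80 in controls and -2.31, -2.64, -2.61, -2.25 and -2.31 in unloaded animals. Unloaded values were high in animals 1, 4 and 5, and animals 2 and 3 lay just below control 3, the highest control. The difference was 0.36 (0.13 to 0.60), 1.29-fold, with an adjusted p of 0.240 by limma, and slide 2 gave 0.28. Mmp12, the macrophage elastase, differed by 0.19 (-0.28 to 0.67).

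Mmp28 (epilysin), known from skin and testis, had the next smallest p among the metalloproteinases. Its brighter probe read -1.1, -1.06, -1.34, -1.09 and -0.77 in controls and -0.72, -0.88, -0.60, -0.74 and -0.71 in unloaded animals. Only control 5 reached into the unloaded range. The difference was 0.34 (0.11 to 0.58), 1.27-fold, with an adjusted p of 0.246 by limma, but 0.040 on slide 2, where control 5 is the comparison. A dimmer Mmp28 probe read -3.44, -3.39, -3.10, -3.30 and -3.55 in controls and -2.93, -2.69, -3.06, -3.02 and -2.27 in unloaded animals. The groups did not overlap for that probe, with a difference of 0.56 (0.25 to 0.88, adjusted p = 0.218 by limma). Among the remaining secreted or membrane-linked enzymes Mmp19, Mmp21 and Mmp23 differed by 0.21, 0.052 and 0.091.

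In the chromosome 9 run 7 genes were tested, 6 of them with a positive difference and 1 negative, where 62.6% of all tested probes were positive. The 6 that carry the AP-1 letters before their start ranged from 6e-05 for Mmp13 to 0.36 for Mmp7, and Mmp8, which does not, stood at -0.17. Mmp13 was slightly negative under median scaling (-0.090) and quantile normalization (-0.00672). None of the 7 passed the test, and genes of one run are not independent of each other. Of the AP-1 subunits, only those on the list of surrounding genes described below were read. They differed by 0.11 for Fos, 0.33 for Fosl1, 0.34 for Fosl2, -0.082 for Jun and 0.020 for Junb. Their adjusted p ran from 0.277 to 0.913 by limma. A relation of the motif or of these subunits to the differences in the run was not tested.

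The ADAMTS enzymes that cut proteoglycans held the most negative difference among the 46 genes. Adamts5, the main aggrecanase of mouse cartilage, read 0.43, 0.93, 0.97, 0.57 and 0.25 in controls and 0.33, 0.53, 0.03, 0.10 and 0.02 in unloaded animals. Controls 2 and 3 stood highest and unloaded animals 3, 4 and 5 lowest, and the rest overlapped. The means were 0.63 ± 0.31 and 0.20 ± 0.22 (SD, n = 5 each), a difference of -0.43 (-0.76 to -0.10), 1.35-fold lower, with an adjusted p of 0.256 by limma. On slide 2 it was 0.046, and without controls 2 and 3 it was -0.22 with an adjusted p of 0.759 by limma.

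A second, dim Adamts5 probe read -4.17, -3.82, -3.75, -4.22 and -4.72 in controls and -4.78, -4.73, -5.06, -4.71 and -5.80 in unloaded animals. It was well above background on 4 control arrays and 0 unloaded arrays, with measured means of -4.14 and -5.02. Such a probe gives only a bound, set against the dimmest signals that each unloaded array could tell from background. By that bound it was at least 1.03-fold higher in controls. The adjusted p of 0.218 by limma belongs to the measured signals, and the bound itself has no test. The probe was tested only through the control group, in which it was brighter, so this p adds nothing to the result of the brighter probe.

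**Figure D3:**
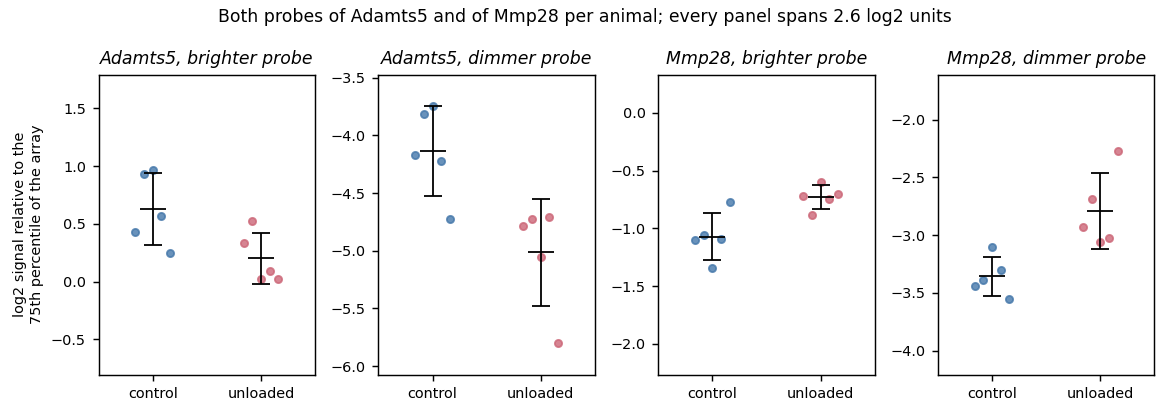
Log2 signal of the brighter and the dimmer probe of Adamts5 and of Mmp28 in each animal (points), with mean and SD of 5 animals a group; all panels span the same log2 range. The brighter Adamts5 probe lies lower and both Mmp28 probes higher in unloaded animals on average, and the dimmer Mmp28 probe separates its groups. The dimmer Adamts5 probe was well above background on 4 control and 0 unloaded arrays and was tested only through the controls, so its lower unloaded values are only a bound.

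Adamts4, the other classical aggrecanase, read -0.10, -0.80, -0.38, -0.34 and -0.41 in controls and 0.05, -0.33, -0.02, -0.42 and 0.08 in unloaded animals. Unloaded animals 1, 3 and 5 lay above all controls, and the others lay among them. The difference was 0.28 (-0.02 to 0.58, adjusted p = 0.334 by limma), opposite in sign to that of Adamts5, and slide 2 gave 0.31. Adamts1, which cuts versican and aggrecan and lies beside Adamts5 on chromosome 16, read -0.15, 0.20, -0.17, -0.20 and -0.57 in controls and 0.15, 0.25, -0.11, -0.20 and -0.43 in unloaded animals. The groups overlapped throughout, with a difference of 0.11 (-0.22 to 0.44), and 0.66 on slide 2, where control 5 is again the lowest control.

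Adamts20, a versican-cutting enzyme known from pigment cell development, read -0.27, -0.47, -0.62, -0.54 and -0.11 in controls and -0.38, -0.29, 0.11, -0.07 and 0.02 in unloaded animals. Unloaded animals 3, 4 and 5 lay above all controls and the remaining 2 lay within the controls' range. Its difference was 0.28 (0.01 to 0.55, adjusted p = 0.304 by limma), and its other probes gave 0.16 and 0.23. On slide 2 it was -0.071. Adamts8, Adamts9 and Adamts15, further proteoglycan-cutting members, differed by 0.085, -0.075 and -0.14. Adamts15 was high in controls 2 and 3 (-0.45 and -0.58) against -0.91 to -1.38 in the other controls, and without those it differed by 0.13.

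The procollagen-processing enzymes Adamts2 and Adamts3, which remove the amino-terminal propeptide of fibrillar procollagens, differed by 0.20 (adjusted p = 0.411 by limma) and 0.100. The 4 Adamts2 probes did not share a sign, at 0.20, -0.15, 0.28 and -0.076 from brightest to dimmest. Adamts7 and Adamts12, which cut cartilage oligomeric matrix protein, differed by 0.15 and 0.13. Of the remaining ADAMTS genes, Adamts13, which cuts von Willebrand factor, differed by 0.20. Adamts16, Adamts19, Adamts10 and Adamts6 differed by 0.22, 0.27, 0.094 and 0.018. The dimmer Adamts10 probes gave 0.28 and 0.23, and the dimmer Adamts16 probe gave -0.051.

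Adamts18 was the only gene of the 46 whose groups did not overlap on its brightest probe. It read -0.99, -1.03, -1.14, -1.01 and -0.96 in controls and -0.91, -0.94, -0.80, -0.90 and -0.80 in unloaded animals. Every unloaded animal lay above every control, with the highest control at -0.96 and the lowest unloaded animal at -0.94. The difference was 0.15 (-0.02 to 0.33), 1.11-fold, and its adjusted p by limma was 0.354. On slide 2 it was 0.074. The groups overlapped for a dimmer Adamts18 probe, which gave a difference of 0.21 (-0.10 to 0.53).

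The ADAMTS-like proteins bind matrix, several of them at fibrillin microfibrils. Adamtsl3 read -0.78, -1.21, -1.38, -1.0 and -1.18 in controls and -0.82, -1.20, -0.93, -0.75 and -0.65 in unloaded animals. The groups overlapped, with control 1 among the highest values, and the difference was 0.24 (-0.05 to 0.52, adjusted p = 0.363 by limma). Adamtsl2 read -1.84, -2.03, -1.90, -1.77 and -2.01 in controls and -1.96, -1.78, -1.87, -1.75 and -1.33 in unloaded animals. Unloaded animal 5 alone stood clear of the rest, and the difference was 0.18 (-0.08 to 0.43) with that animal and 0.073 without it. Adamtsl1 and Adamtsl4 differed by 0.15 and -0.039, and Adamtsl5 by -0.00174 on its brightest probe. The dimmer Adamtsl5 probes gave 0.16 and 0.29.

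The TIMPs bind active metalloproteinases, and Timp3 also blocks several ADAMTS enzymes. Timp1 read 3.70, 3.73, 3.61, 3.44 and 3.33 in controls and 3.2, 4.04, 3.38, 3.51 and 3.29 in unloaded animals. Unloaded animal 2 was the highest and the groups overlapped, with a difference of -0.079 (-0.40 to 0.24). Timp2 read 4.40, 4.60, 4.43, 4.33 and 4.17 in controls and 4.70, 4.70, 4.37, 4.14 and 4.57 in unloaded animals. Unloaded animals 1 and 2 lay above all controls and animal 4 below them, with a difference of 0.11 (-0.16 to 0.38).

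Timp3, which stays bound to the matrix, read 3.42, 3.87, 3.85, 3.59 and 3.58 in controls and 3.49, 3.73, 3.64, 3.30 and 3.28 in unloaded animals. Controls 2 and 3 were highest and unloaded animals 4 and 5 lowest, and the difference was -0.17 (-0.44 to 0.09, adjusted p = 0.455 by limma). Timp4 read -1.19, -1.31, -0.99, -1.35 and -1.35 in controls and -1.03, -1.27, -0.90, -1.17 and -0.89 in unloaded animals. Unloaded animals 3 and 5 lay above all controls, and the difference was 0.18 (-0.05 to 0.42, adjusted p = 0.384 by limma). On slide 2 alone the 4 differences were 0.21, 0.42, 0.038 and 0.28 from Timp1 to Timp4.

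Probes of a gene were not always alike. Among the 46 genes 22 had more than 1 tested probe, and in 11 of these the probes differed in sign. The 3 Timp1 probes gave -0.079, -0.079 and 0.020, and the 3 Adamts9 probes -0.075, 0.24 and -0.19. Within slide 2, which has 1 control, 34 of the 46 genes were positive, where 51.2% of all tested probes were positive. Of the 46 genes 16 had the sign opposite to that over all 10 animals, and 30 the same sign.

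**Figure D4:**
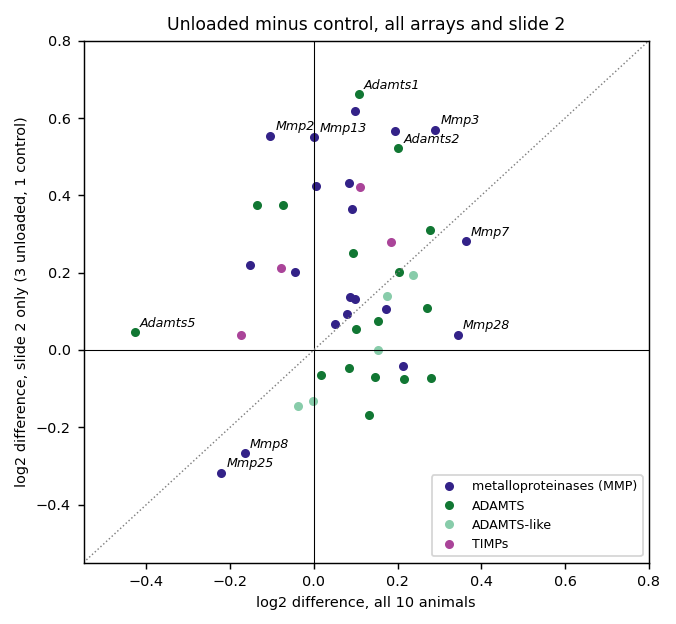
Log2 difference of each of the 46 genes over all 10 animals (x axis) and within slide 2 alone (y axis, 3 unloaded animals against 1 control), coloured by class; the dotted line marks equal values. Mmp7 keeps 0.28 of 0.36, Adamts5 and Mmp28 lie near 0 on slide 2, and Mmp2, Mmp13 and Adamts1 lie well above the line, at 0.55, 0.55 and 0.66.

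The genes around these enzymes were read as a list of 47 activators, inhibitors, partners, substrates and transcription factors. Of them 45 were tested, since Spock1 and Spock3 were too dim, and 0 were called (smallest adjusted p 0.218 by limma). Differences were positive for 27 (60%, against 62.6% of all probes) and negative for 18, the median was 0.034 against 0.066 over all probes, and 5 (11.1%, against 16.1% of all probes) had an unadjusted p below 0.05. The smallest p belonged to Il6, an inflammatory cytokine, at -3.30, -3.24, -3.36, -3.17 and -3.24 in controls and -2.76, -3.12, -2.76, -2.91 and -2.70 in unloaded animals. Its groups did not overlap, and the difference was 0.41 (0.20 to 0.63). Next came Tnf, another inflammatory cytokine, at -0.29, the plasminogen activator inhibitor Serpine2 at 0.29, the AP-1 subunit Fosl2 at 0.34, Furin, the convertase that activates Mmp14, at 0.22, and the proteoglycan Spock2 at 0.24. Their adjusted p lay between 0.262 and 0.321 by limma. Substrates with values near 0 included Vcan (-0.039), Fbn1 (0.034) and Eln (-0.044), and Acan, the cartilage proteoglycan aggrecan, stood at 0.11.

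Marker lists of other cell types also differed between animals. Controls 2 and 3, which were high for Adamts5, Adamts15, Mmp3 and Timp3, had skeletal muscle list means of 4.65 and 4.50, against 3.36 to 4.12 in the other controls and 3.45 to 4.60 in unloaded animals. Their fibroblast and tendon means were 2.01 and 1.98, against 1.16 to 1.43 in the other controls, and unloaded animal 5, which was high for Mmp3, had 1.94. Their adipocyte means were 3.61 and 3.68 against 2.57 to 3.1 in the other controls. All 12 cartilage markers had positive differences, where 62.6% of all tested probes were positive. The cartilage list means were 2.13 ± 0.29 in controls and 2.42 ± 0.25 in unloaded animals (SD, n = 5 each). One-sided lists were not particular to cartilage. All 7 osteocyte markers were positive, and all 7 adipocyte and 11 of 12 skeletal muscle markers were negative. Of the neutrophil markers 6 of 12 were positive, with means of 4.46 ± 0.18 and 4.40 ± 0.090 over the 11 measured on all arrays. The part of these cell types in the differences of Adamts5, Mmp3 and Mmp8 was not tested.

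Levels of enzymes and inhibitors were set against marker list means over the 10 animals in 12 pairs. The osteoblast mean takes 9 markers and the neutrophil mean 11, since Bglap and Ltf, a marker of each, had no value on the array of unloaded animal 3. By Pearson's r 5 of the 12 pairs had a Benjamini-Hochberg adjusted permutation p below 0.05 (6 before adjustment), and by Spearman's rho 1 had (2 before adjustment). That 1 pair was Mmp14 with the osteoblast list, at r = 0.929 (permutation p = 9.0e-05, adjusted 0.00108) and rho = 0.915 (permutation p = 0.00058, adjusted 0.00696). Mmp13 with the osteoblast list gave r = 0.793 (permutation p = 0.00864, adjusted 0.0311) and rho = 0.673 (permutation p = 0.0385, adjusted 0.177). Timp1 gave r = 0.775 (permutation p = 0.0102, adjusted 0.0311) and rho = 0.636 (permutation p = 0.0536, adjusted 0.177). Mmp2 missed the threshold at r = 0.633 (permutation p = 0.0461, adjusted 0.0923) and rho = 0.491 (permutation p = 0.155, adjusted 0.266).

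With the osteoclast list, Mmp9 gave r = 0.803 (permutation p = 0.013, adjusted 0.0311) and rho = 0.600 (permutation p = 0.0737, adjusted 0.177), and Mmp14 r = 0.779 (permutation p = 0.0125, adjusted 0.0311) and rho = 0.539 (permutation p = 0.114, adjusted 0.228). Mmp8 with the neutrophil list gave r = 0.607 (permutation p = 0.0668, adjusted 0.100) and rho = 0.612 (permutation p = 0.0672, adjusted 0.177). The other 5 pairs had adjusted p of 0.0926 or more by r: Mmp9 and Mmp25 with neutrophil markers (r = 0.264 and 0.164) and Mmp13, Mmp3 and Timp3 with cartilage markers (r = 0.622, 0.270 and 0.315). With Bglap and Ltf kept in the means of the 9 arrays that measured them, 6 pairs passed by r and 0 by rho. Mmp14 with the osteoblast list then gave r = 0.733 (permutation p = 0.022, adjusted 0.048). Mmp2 passed at r = 0.699 (permutation p = 0.024, adjusted 0.048). Bglap and Ltf averaged 7.22 and 6.44 in controls, against 3.28 and 4.46 for the means of the other markers. Lacking them, the array of unloaded animal 3 has lower list means in that setting, and its correlations carry that offset.

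Unloaded animal 2 had the highest osteoblast mean (3.67) and osteoclast mean (1.62) of the 10. Without it 1 of 12 pairs passed by r, Mmp14 with osteoblast markers (r = 0.836, permutation p = 0.0007, adjusted 0.0084, n = 9), and r was 0.601 for Mmp13, 0.50 for Timp1, 0.658 for Mmp9 with osteoclast markers and 0.458 for Mmp14 with osteoclast markers. Without unloaded animal 5 that same pair alone passed (r = 0.968, permutation adjusted p = 0.00168), with r of 0.841 for Mmp13, 0.773 for Timp1, and 0.757 and 0.718 for Mmp9 and Mmp14 with osteoclast markers. Leaving out any other animal, unloaded animal 3 included, left 4 to 6 pairs. Leaving out the 2 animals farthest from the list median, 0 pairs passed. Mmp14 with osteoblast markers then gave r = 0.823 (permutation p = 0.0069, adjusted 0.0828, n = 8), Mmp13 0.369 and Timp1 0.495. With osteoclast markers r was then 0.188 for Mmp9 and 0.146 for Mmp14. Leaving out these animals narrows the range of the list mean, which tends to lower r. That setting therefore cannot show whether a relation fails. With each group centred on its mean, 8 pairs passed by r and 5 by rho. Slides held 4, 4 and 2 arrays, too few for a correlation within a slide. All values of an array share its 75th percentile as scale.

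**Figure D5:**
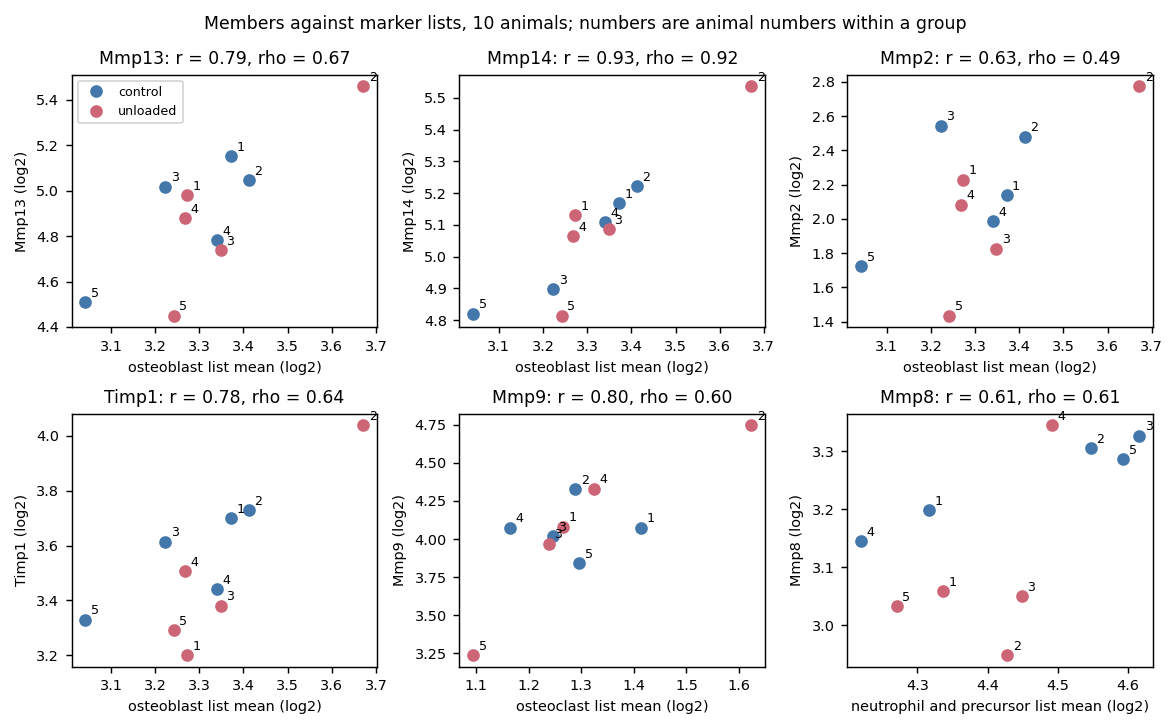
Log2 signal of 5 metalloproteinases and Timp1 (y axes) against the mean log2 signal of a marker list (x axes) for the 10 animals, coloured by group and numbered within it, with Pearson's r and Spearman's rho above each panel. Unloaded animal 2 sits at the upper right of the osteoblast and osteoclast panels, for example at 5.46 for Mmp13 and 4.75 for Mmp9.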

How the data were processed

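One-colour Agilent arrays carried Cy3-labelled total RNA, 1 animal to an array. Per the file headers, the authors read spots with Agilent Feature Extraction 9.1.3.1 (protocol GE1-v5_91_0806, design 014868), and the deposited processed signal is an intensity on a linear scale, background-corrected and detrended within each array. The deposited series matrix holds the same intensity, with ratios to the processed signal of 0.995 to 1.005 and column medians of 335, 332, 303, 261 and 306 for controls and 315, 269, 253, 311 and 291 for unloaded animals; its values are on the linear scale and uncentred. It served as an alternative.

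Each of the 43379 gene spots per array was taken to log2, spots of a probe were averaged, 97 outlier spots over all arrays were left out, and the array's 75th percentile was subtracted. To be tested, a probe had to stand well above background in 4 or more of the 5 animals of either group and to have a value in at least 3 animals of both. Groups were compared with limma 3.58.1 (lmFit, eBayes) in R 4.3.3, two-sided, without covariates, and p-values were adjusted by Benjamini and Hochberg over 38629 probes. The script was tested on simulated data. The tested probe with the highest mean stood for a gene. No tested probe of the 46 genes lacked a value, and none was saturated. The number of arrays limits precision. A two-sided exact permutation test of body weight between the groups gave p = 0.278.

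Per-animal values are given for Timp1 to Timp4, Mmp2, Mmp3, Mmp8, Mmp9, Mmp13, Mmp14, Adamts1, Adamts4 and Adamts5 and for the 2 genes with the smallest p in each class; of the surrounding list, the 6 with the smallest p are named. Adamts18, the AP-1 subunits, the substrates named and second probes were picked after their values were seen. The genes and lists were chosen with earlier results of these data known. Marker list means take the markers with a value on all 10 arrays, a rule set after the results were seen, in place of means that kept Bglap and Ltf on 9 arrays. Marker list correlations used 100000 permutations over the animals. Alternatives were normexp background, median and quantile scaling, other filters on dim probes, the series matrix, slide and replicate blocks, the mean of all probes of a gene, and leaving out each array. Leaving out controls 2 and 3 together and the earlier list means were added after seeing the data. Promoter windows came from RefSeq (GRCm38.p6).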

Additional observations from a re-analysis of the deposited data

Results flagged for a closer look

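Among 92 groups of 5 values (46 genes in 2 groups), 4 had an extreme animal whose gap to its neighbour exceeded 0.71 of the group's range; chance flags about 1 in 20 groups. In all 4 it was a high unloaded animal. Adamts3 stood at 0.56 in unloaded animal 5, with the next value at 0.20. Mmp3 stood at -0.52 in the same animal, with the next at -1.40. Mmp8 stood at 3.35 in unloaded animal 4, with the next at 3.06, so the negative Mmp8 difference came from the other 4 animals. Mmp11 stood at -0.018 in unloaded animal 2, with the next at -0.49.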

How the results depend on the processing

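None of the 46 genes was called under any of the 20 alternatives that give a test, among which the smallest adjusted p lay between 0.111 (without unloaded animal 2) and 0.767 (slide as a fixed block). Over the array, 3 probes were called with slide as a fixed block and 0 to 2 when single arrays were left out. The replicate numbers do not pair the animals (correlations of same-numbered deviations of -0.049, 0.18, -0.11, -0.14 and 0.073), and with the replicate block 1 probe and 0 of the 46 genes were called. Of the 12 correlations, 5 passed by r and 1 by rho; 8 and 5 passed both with groups centred on their means and with median scaling, 4 and 2 with normexp background, 4 and 3 with quantile normalization, 6 and 1 with the mean of all probes of a gene, 0 and 0 without the 2 farthest animals, and 1 to 6 by r without single animals. Signs turned with slide as a fixed block, and equally within slide 2, for Timp1 (0.21), Timp3 (0.038), Mmp2 (0.55), Adamts5 (0.046), Adamts15 (0.38) and Adamts20 (-0.071); Adamts15 also turned without controls 2 and 3 (0.13). Median scaling turned Mmp9 (-0.084), Mmp13 (-0.090) and Mmp14 (-0.00631), quantile normalization turned Mmp13 (-0.00672), and slide as a random block turned Mmp9 (-0.00221) and Mmp13 (-0.015). Slides 1 and 3 each hold 1 group, so both slide 2 settings give the same differences, and with 1 control there is no count of calls within slide 2. Leaving out single arrays gave -0.28 to 0.054 for Mmp2, -0.16 to 0.21 for Mmp9, -0.14 to 0.11 for Mmp13 and -0.019 to 0.16 for Mmp14. The cause was not tested. Mmp7 (0.12 to 0.42) and Mmp28 (0.040 to 0.45) stayed positive and Mmp8 (-0.27 to -0.12) negative under every alternative run. A stable sign was not particular to them. Adamts4 (0.18 to 0.35), Mmp3 (0.091 to 0.69), Adamts1, Adamtsl2, Adamtsl3, Timp2 and Timp4 also stayed positive throughout.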
